A study of Mus musculus with 9 samples.

Results

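A set of 10 genes that mark eosinophils, basophils and mast cells were followed in CD11b+ spleen cells of mice exposed to social threat. The genes are Ccr3, Prg2, Epx, Il5ra, Fcer1a, Cpa3, Hdc, Ms4a2, Mcpt8 and Gata2. They were chosen by name, and they are 10 of the 18193 genes that a probe set of the array names alone. Affymetrix MOE430 arrays had been hybridised with RNA of C57BL/6 animals in 2 groups. The threat group comprised 6 animals subjected repeatedly to social threat (HighThreat in the labels), with 1 array each. The control group comprised 6 animals kept in non-threatening conditions (LowThreat), pooled by 2 into 3 arrays. In both groups the cells were adherent splenocytes selected with magnetic beads for CD11b. The labels used here state neither age nor length of exposure. A control array averages 2 animals and a threat array shows 1, so p-values measure the spread between arrays of unequal make-up.

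The 3 cell types are rare granule-bearing cells of type 2 immunity. Eosinophils depend on interleukin-5, move toward eotaxins through CCR3 and store cationic proteins. Basophils and mast cells carry the high-affinity IgE receptor and release histamine and proteases when it is crosslinked. Eosinophils and basophils of the mouse carry CD11b, the antigen used for the selection. Histidine decarboxylase, encoded by Hdc, makes histamine and is also found in neutrophils and immature myeloid cells. Gata2 is shared with blood stem and progenitor cells.

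Hdc, the only bright gene of the set, was higher in all 6 threat animals than in all 3 control pools, by 0.50 on the log2 scale. Ccr3, the eotaxin receptor, was lower in all 6 threat animals, by 1.18. The eosinophil granule genes Prg2 and Epx, the IgE receptor genes Fcer1a and Ms4a2 and the basophil protease gene Mcpt8 differed by less than 0.18 in either direction. RMA, the method behind the values, gives no detection call, so a filter stood in for one: a gene was tested if its mean over the 9 arrays reached 2.66, the level that 40% of probe sets lie under, control probe sets aside. Of the 10 genes, 5 reached it, and 5 were under it on each of the 9 arrays (Epx, Il5ra, Fcer1a, Cpa3 and Ms4a2).

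In limma's test over 13079 genes at a Benjamini-Hochberg adjusted p under 0.05, 1 of the 5 tested genes rose (Hdc) and 2 fell (Ccr3 and Gata2). The background is high: 45.8% of all tested genes passed, 23.8% as higher and 22.0% as lower in threat animals. The median difference was 0.029 over all tested genes and -0.13 over the 5. Ccr3 reached the filter through its control arrays alone, so the share of the 5 that passed says little about the 10.

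Hdc had log2 values of 9.79, 9.68 and 9.74 in control pools 1-2, 3-4 and 5-6. In threat animals its lowest value was 10.09, its median 10.30 and its highest 10.32. The groups did not overlap, and threat animals 5 and 6 were the lowest of their group, at 10.11 (animal 5) and 10.09 (animal 6). The mean went from 9.74 ± 0.058 (SD, n = 3) to 10.24 ± 0.11 (SD, n = 6), a 1.42-fold rise of 0.50 on the log2 scale (SE 0.065, adjusted p = 3.8e-05, 95% interval 0.36 to 0.64). A second Hdc probe set gave the same picture, with a difference of 0.49 (SE 0.063, adjusted p = 6.8e-05 over 22759 probe sets). Both are of the kind whose probes match several transcripts.

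Ccr3 read 3.76, 3.64 and 2.93 in control pools 1-2, 3-4 and 5-6. In threat animals it ran from 2.10 over a median of 2.30 to 2.33, so every threat array lay under every control array and under the filter value. Control pool 5-6 was the lowest of the controls. The mean went from 3.44 ± 0.45 (SD, n = 3) to 2.27 ± 0.088 (SD, n = 6), a difference of -1.18 (SE 0.14, adjusted p = 1.9e-05, 95% interval -1.49 to -0.87). As all threat values lie under the filter value, the 2.26-fold difference is approximate. Its single probe set has a mean over all arrays that equals the filter value, so Ccr3 is the dimmest gene that was tested, and a stricter filter removes it.

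Il5ra, the receptor subunit that binds interleukin-5, was under the filter on all arrays. It read 2.45, 2.31 and 2.40 in control pools 1-2, 3-4 and 5-6, and in threat animals its lowest, median and highest values were 1.96, 2.22 and 2.25. Every threat value was below every control value, a difference of -0.24 within the dim range. With no filter, limma gave it an adjusted p of 0.029 over 18193 genes. Prg2, which encodes the major basic protein of eosinophil granules, read 3.01 in control pool 1-2 and 2.88 in both other pools, against 2.53 to 3.14 in threat animals (median 2.88). The groups overlapped, and Prg2 differed by -0.057 (SE 0.12, adjusted p = 0.74, 95% interval -0.32 to 0.21). Epx, the eosinophil peroxidase gene, lay between 2.00 and 2.08 in control pools and between 1.92 and 2.31 in threat animals (median 2.07). Its difference of 0.033 had a 95% interval of -0.14 to 0.20 with no filter.

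The genes of the IgE receptor's own chains were the dimmest of the set. Fcer1a, the chain that binds IgE, ran from 1.48 to 1.59 in control pools and from 1.52 to 1.77 in threat animals, and differed by 0.060 (95% interval -0.070 to 0.19 with no filter). Ms4a2, the beta chain, ran from 1.34 to 1.71 in control pools and from 1.59 to 1.82 in threat animals, and differed by 0.18 (95% interval -0.0016 to 0.35). Without control pool 5-6, its lowest array, the difference was 0.061. A second Ms4a2 probe set differed by 0.019. Both chains lay under the filter on every array of both groups.

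Mcpt8, the basophil-restricted mast cell protease 8, read 3.57, 3.92 and 3.55 in control pools 1-2, 3-4 and 5-6, against 3.33 to 3.83 in threat animals (median 3.54). The groups overlapped, with a difference of -0.13 (SE 0.11, adjusted p = 0.36, 95% interval -0.37 to 0.11). Control pool 3-4 was the highest array, and without it the difference was -0.011. Cpa3, the mast cell carboxypeptidase gene that basophils and progenitors express too, ran from 2.13 to 2.39 in control pools and from 2.02 to 2.24 in threat animals, all under the filter. It differed by -0.19 (adjusted p = 0.053 with no filter, 95% interval -0.34 to -0.038).

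Gata2, the transcription factor gene of mast cells, basophils and progenitors, sat at the edge of the test. Its values were 3.52, 3.63 and 3.49 in control pools 1-2, 3-4 and 5-6, and in threat animals the lowest, median and highest were 3.26, 3.37 and 3.53. Threat animal 1 lay within the range of the controls. The difference was -0.17 (SE 0.065, adjusted p = 0.046), and a second Gata2 probe set differed by 0.000, with a mean of 2.91 in both groups. The adjusted p ran from 0.016 to 0.19 over 22 alternative settings and passed in 8 of them. It was lost without any single control pool and without threat animal 3, 4, 5 or 6, with values up to 0.19 (without control pool 3-4).

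**Figure D1:**
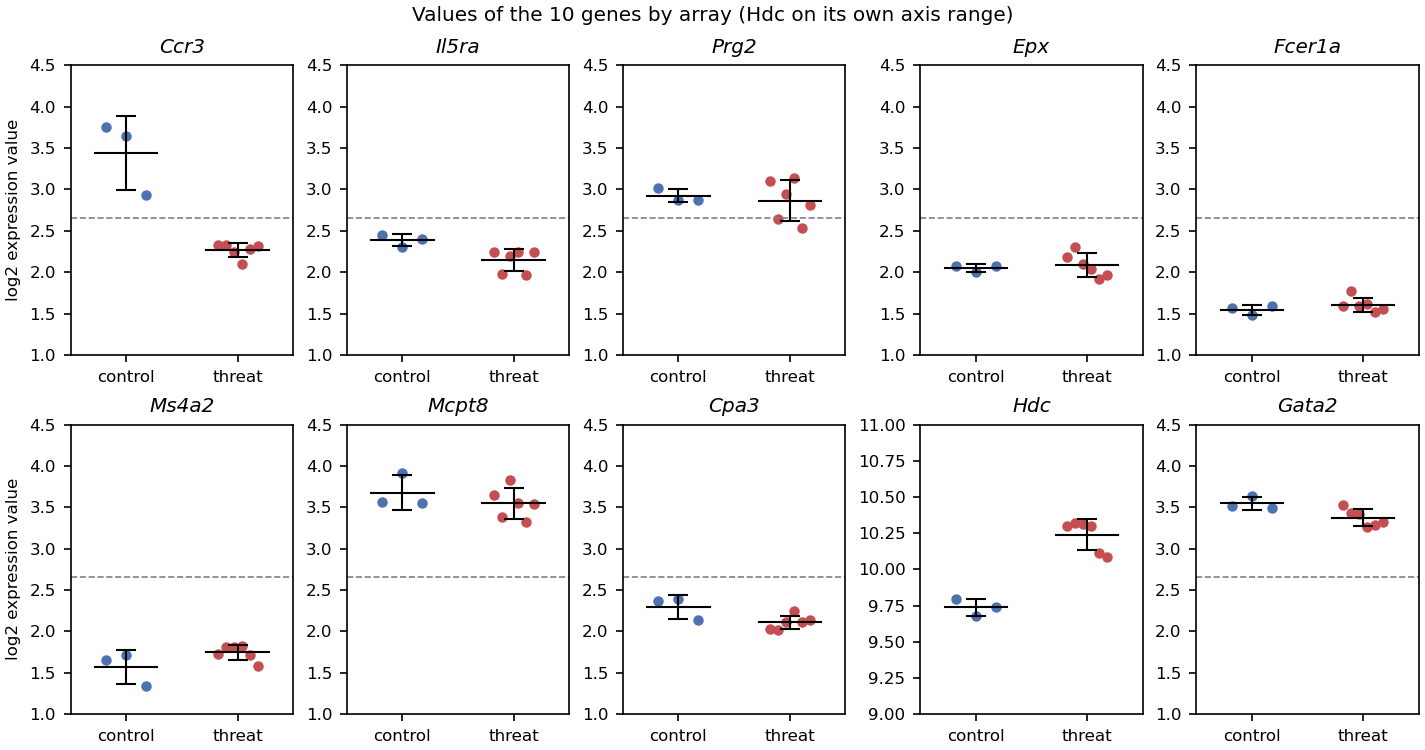
Log2 expression value of the 10 genes on each array, with 3 control pools in blue, 6 threat animals in red, black lines for mean ± SD and a dashed line at the filter value of 2.66. Ccr3 fell below the line in all 6 threat animals, 5 genes lay below it on every array, and Hdc, drawn on a range of its own, was the only bright gene.

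The promoter windows of Ccr3 and Hdc are shown because these are the 2 genes of the set with the largest differences, of opposite sign. RefSeq windows on GRCm38.p6, from 250 bases before to 50 bases after the start, were found for 9 of the 10 genes, and Gata2 has 2 of them. Both strands were searched for the GATA motif (AGATAA and TGATAA, or AGATAG and TGATAG), the core of the PU.1 motif (GAGGAA) and a C/EBP motif (TTGCNNAA). Matches are in capitals below, and none overlapped another. The Ccr3 window lies on the plus strand at chr9:124021721-124022020 and the Hdc window on the minus strand at chr2:126618629-126618928.
Ccr3: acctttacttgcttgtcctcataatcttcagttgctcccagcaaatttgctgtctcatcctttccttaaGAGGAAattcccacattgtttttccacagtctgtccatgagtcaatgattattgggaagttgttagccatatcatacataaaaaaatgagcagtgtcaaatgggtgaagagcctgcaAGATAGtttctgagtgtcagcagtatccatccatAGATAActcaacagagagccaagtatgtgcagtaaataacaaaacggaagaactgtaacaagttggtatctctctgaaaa
Hdc: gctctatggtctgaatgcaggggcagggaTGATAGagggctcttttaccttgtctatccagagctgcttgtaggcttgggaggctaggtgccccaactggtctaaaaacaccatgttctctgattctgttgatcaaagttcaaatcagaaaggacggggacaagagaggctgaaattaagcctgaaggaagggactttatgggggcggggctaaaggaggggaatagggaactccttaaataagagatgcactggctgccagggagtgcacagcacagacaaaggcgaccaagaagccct
Ccr3 has GATA matches that begin 64 bases and 30 bases before the start and a PU.1 match 181 bases before it, whereas Hdc has 1 GATA match, 221 bases before its start. A GATA match was present in 6 of the 9 genes (Ccr3, Il5ra, Fcer1a, Cpa3, Hdc and Ms4a2). That is 6 of their 10 windows, against 29.8% of all 32851 windows. A PU.1 match was present in 4 of the 10 windows (Ccr3, Il5ra, Fcer1a and Mcpt8, against 28.3% of all windows) and a C/EBP match in Fcer1a alone (against 10.8%). A match describes these letters only, and binding was not measured.

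Genes that share roles with the 10 were taken from 7 lists of 95 genes, of which 66 were tested. In all, 18 rose and 26 fell, which is 66.7% against 45.8% of all tested genes, and the median difference was -0.044. For every gene given here, fewer cells of a type and less RNA per cell cannot be told apart.

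Siglecf, an inhibitory lectin of eosinophils, read 3.75, 3.47 and 3.70 in control pools 1-2, 3-4 and 5-6 and 2.64 to 3.23 in threat animals (median 2.90), with no overlap. It fell by 0.74 (SE 0.10, adjusted p = 7.9e-05). Prg3, a second major basic protein gene, read 3.37, 3.17 and 3.31 in control pools and 2.86 to 3.12 in threat animals, and fell by 0.29 (SE 0.063, adjusted p = 0.0021). The means over all arrays, 3.15 for Siglecf and 3.09 for Prg3, lay not far above the filter value of 2.66. Siglecf in threat animal 5, at 2.64, lay under it. Like Ccr3, Siglecf and Prg3 were not tested with the filter at the 50th or 60th percentile. Among the control pools, 3-4 was the lowest for Siglecf and Prg3, whereas 5-6 was the lowest for Ccr3 and Kit. Of the 10 tested surface receptor genes in the list that holds Siglecf, 3 rose and 2 fell, and without control pool 1-2 only 1 rose. Kit, the stem cell factor receptor of mast cells and progenitors, fell by 0.65 (SE 0.094, adjusted p = 0.00010), and by 0.42 with its probe sets averaged (adjusted p = 5.5e-05). Csf2rb, the receptor chain shared by interleukin-3, interleukin-5 and GM-CSF, was bright and differed by 0.032 (SE 0.057, adjusted p = 0.68). Il3ra rose by 0.22 (SE 0.064, adjusted p = 0.013), a call lost without control pool 1-2 (adjusted p = 0.074) or 5-6 (adjusted p = 0.062). The others that rose, singled out after their values were seen, did not overlap between groups. Crlf2, the thymic stromal lymphopoietin receptor gene, rose by 0.26 (SE 0.053, adjusted p = 0.0015), and Ptgdr2, the prostaglandin D2 receptor gene of eosinophils and basophils, by 0.14 (SE 0.045, adjusted p = 0.024). The call of Ptgdr2 was lost in 4 of 23 alternative settings. These were without control pool 1-2 (adjusted p = 0.081) or 3-4 (adjusted p = 0.088), with trended robust eBayes and with threat animals averaged in number pairs.

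Of 9 tested granule and secreted genes outside the set, 1 rose and 3 fell, and without threat animal 3, 2 rose. The gene that rose, Ctsg, encodes a protease of mast cells and neutrophils and is also in the neutrophil list: it went from 3.83 ± 0.14 (SD, n = 3) to 6.23 ± 0.31 (SD, n = 6), by 2.40 (SE 0.15, adjusted p = 7.5e-08). Srgn, the proteoglycan core that packs granules in many leukocytes, fell by 0.15 (SE 0.044, adjusted p = 0.017, and 0.054 without control pool 3-4). The other gene that fell was Cma1, the mast cell chymase gene, which read 3.85, 3.46 and 3.45 in control pools 1-2, 3-4 and 5-6 and 3.14 to 3.38 in threat animals. It fell by 0.31 (SE 0.086, adjusted p = 0.010), but by 0.18 without control pool 1-2 (adjusted p = 0.050, just over the threshold). The tryptase genes Tpsab1, Tpsb2 and Tpsg1 overlapped between groups and did not pass. They differed by 0.12 (adjusted p = 0.15), 0.18 (adjusted p = 0.18) and -0.028 (adjusted p = 0.84). Tpsab1 passed in 1 of 22 alternative settings, without threat animal 3 (adjusted p = 0.033). Cma1 and the tryptase genes were singled out after their values were seen.

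Of 4 tested genes of histamine handling, 2 rose and none fell in limma's test (2 and 0 at an unadjusted p under 0.05). The others, Hrh3 and Aoc1, differed by 0.12 (adjusted p = 0.36) and 0.023 (adjusted p = 0.76) and were singled out after their values were seen. Hnmt, the enzyme that inactivates histamine inside cells, read 3.91, 3.88 and 3.82 in control pools 1-2, 3-4 and 5-6 and 5.26 to 5.43 in threat animals (median 5.33). It rose by 1.47 (SE 0.053, adjusted p = 7.8e-10), a 2.78-fold difference. Hrh2, the H2 histamine receptor gene, read 5.08, 5.13 and 4.92 in control pools and 5.73 to 5.96 in threat animals, and rose by 0.82 (SE 0.063, adjusted p = 3.6e-07). Neither gene's groups overlapped. Slc18a2, the transporter that loads histamine into granules, was under the filter, with means of 1.81 in control and 1.52 in threat arrays and no overlap, and with no filter the list had 1 gene that fell.

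**Figure D2:**
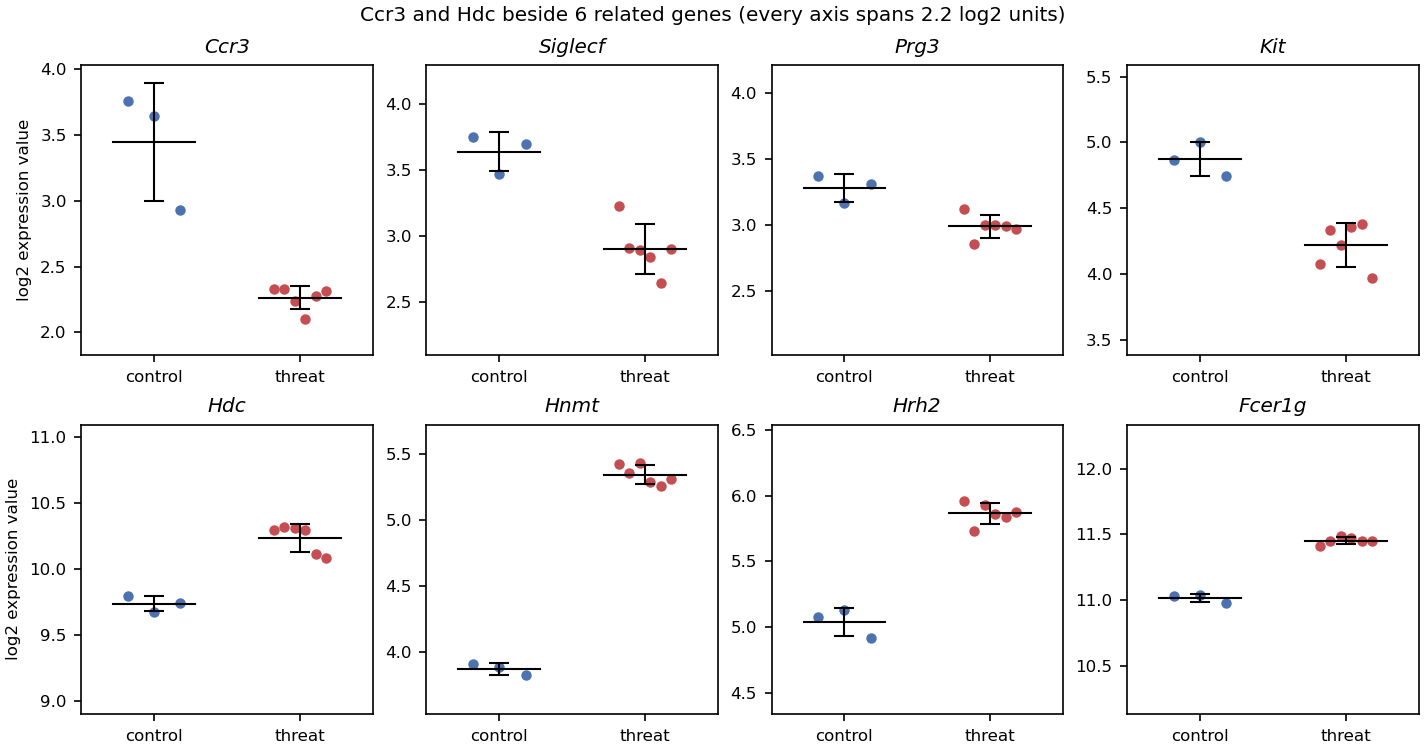
Log2 expression value by array of Ccr3, Siglecf, Prg3 and Kit (upper row) and of Hdc, Hnmt, Hrh2 and Fcer1g (lower row), with 3 control pools in blue, 6 threat animals in red, black lines for mean ± SD and axes of equal length. The upper 4 genes were lower and the lower 4 higher in every threat animal than in any control pool. Siglecf, Prg3, Kit, Hnmt and Hrh2 were named for the smallest p of their lists, so their separation follows largely from that choice. The share of all tested genes without overlap is not given here. Of genes not drawn, Prg2 and Epx overlapped between groups, Il5ra was lower and Ptgdr2 higher in every threat animal.

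Signalling genes below the IgE receptor changed in both directions. Of 13 tested, 4 rose and 7 fell, beside 45.8% of all tested genes called in either direction. The number that fell ran from 5 to 7 over the alternative settings, and was 6 with no filter or quantile normalization. Vav1, which fell by 0.11 (SE 0.042, adjusted p = 0.045), was the call nearest to the threshold. Fcer1g, the gamma chain that IgE and IgG receptors share and that most myeloid cells express, read 10.98 to 11.04 in control pools and 11.41 to 11.49 in threat animals, and rose by 0.44 (SE 0.043, adjusted p = 3.3e-06). Fcer1a and Ms4a2 were in the dim range in both groups. The kinase genes Syk and Fyn went opposite ways, with a rise of 0.59 (SE 0.055, adjusted p = 2.4e-06) and a fall of 1.21 (SE 0.059, adjusted p = 7.3e-09).

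Among transcription factors of these lineages, 5 of 17 tested rose and 9 fell. Irf8, which acts in mast cell and basophil progenitors as well as in monocytes and dendritic cells, fell by 1.70 (SE 0.067, adjusted p = 1.4e-09). Stat5a, a signal transducer of interleukin-3 and interleukin-5, fell by 0.79 (SE 0.048, adjusted p = 4.7e-08). Gata1, the partner of Gata2 in eosinophils and mast cells, differed by -0.10 (SE 0.064, adjusted p = 0.23). Cebpb, the brightest of the list, differed by 0.11 (SE 0.047, adjusted p = 0.071).

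The ligands of type 2 immunity were mostly dim. Of 12 genes, 7 were under the filter, among them Il3, Il4 and Il5. Of 5 tested, 1 fell and none rose in limma's test (1 and 0 at an unadjusted p under 0.05, and 2 fell with no filter). Ccl24, the eotaxin 2 gene and a ligand of CCR3, fell by 0.18 (SE 0.063, adjusted p = 0.035), a call lost in 9 of 23 alternative settings, which leaves no gene of the list that fell. It was lost without control pool 1-2 or 3-4 or without threat animal 1, 2, 4 or 5, with adjusted p up to 0.17. Ccl11, the eotaxin 1 gene, had means of 1.66 in control and 1.78 in threat arrays, both in the dim range.

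Of 8 tested genes of lipid mediators, 3 rose and 4 fell (2 fell without control pool 5-6). Alox5ap, which presents arachidonic acid to 5-lipoxygenase, rose by 0.78 (SE 0.048, adjusted p = 5.1e-08), and its groups did not overlap. Cysltr1, a leukotriene receptor gene, had means of 2.34 in control and 3.70 in threat arrays. All 3 of its control values (2.12 to 2.58) lie under the filter value, so it was tested only because its threat values are high, and the difference of 1.36 (SE 0.10) is approximate. Alox15, a lipoxygenase gene that eosinophils express and that was singled out after its values were seen, fell by 0.33 (SE 0.084, adjusted p = 0.0063). Its mean over all arrays was 3.05, and it was not tested with the filter at the 50th or 60th percentile.

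**Figure D3:**
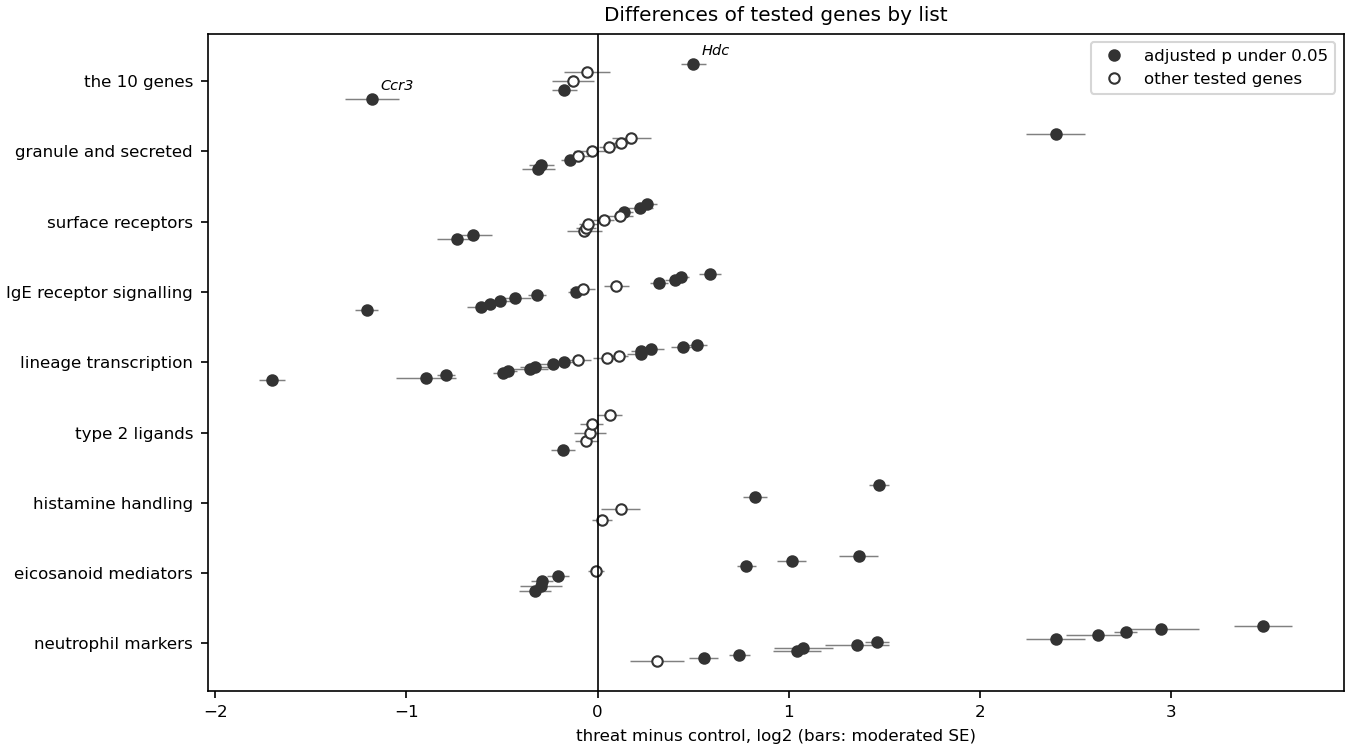
Threat minus control on the log2 scale for each tested gene, by list, with bars for limma's moderated SE. Filled points passed an adjusted p under 0.05 and open points did not. Ccr3 and Hdc lie at the ends of the set of 10, and the neutrophil markers in the lowest line lie furthest to the right, up to 3.48.

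Markers of other cells in the selection moved in the same arrays. Of 12 tested neutrophil and precursor genes, limma called 11 higher and 0 lower (12 and 0 at an unadjusted p under 0.05). The median difference was 1.41, and the mean of the 12 went from a range of 7.63 to 7.80 in control pools to 9.15 to 9.72 in threat animals. Mpo, a peroxidase of granulocyte precursors, rose by 2.95 (SE 0.20, adjusted p = 1.3e-07). On the 2 threat arrays with the lowest Hdc, animals 5 and 6, this mean was also lowest, at 9.15 and 9.17, against 9.46 to 9.72 in the other 4. This was not particular to neutrophil genes. Animals 5 and 6 were also lowest for the means of B cell genes (5.30 and 5.31, against 5.48 to 5.73), stem and progenitor genes (4.14 and 4.09, against 4.24 to 4.32) and lineage transcription factors (7.11 and 7.13, against 7.18 to 7.21). They were highest for monocyte and macrophage genes (10.16 and 10.13, against 10.07 to 10.12). The part of neutrophils and their precursors in the rise of Hdc, Hnmt, Hrh2 and Ctsg was not tested. None of the 12 genes was under the filter.

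**Figure D4:**
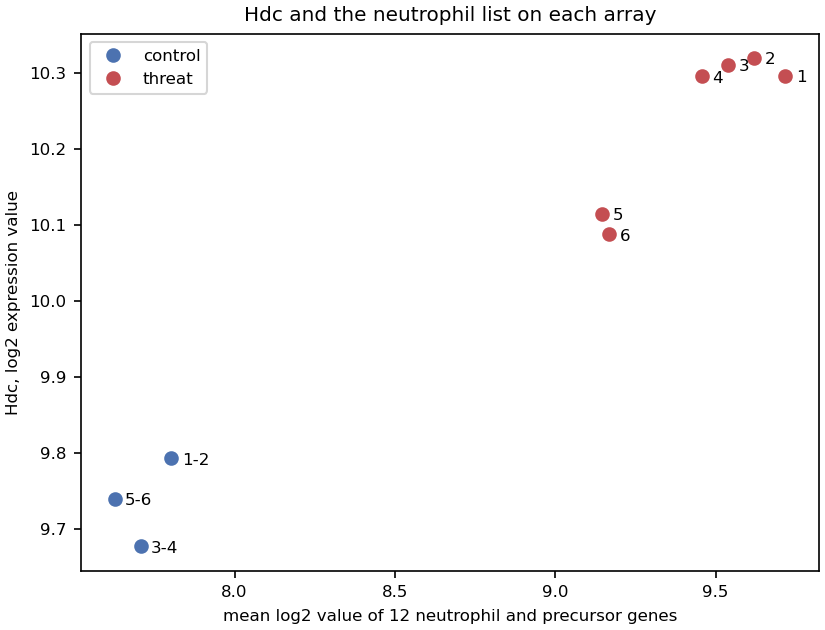
Hdc (log2 expression value, vertical) against the mean log2 value of 12 neutrophil and precursor genes (horizontal) on each of the 9 arrays, with control pools in blue and threat animals in red, labelled by number. The groups are apart on both axes, and threat animals 5 and 6 lie lowest of their group on both. The same animals were also lowest for B cell genes, which are not drawn.

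Of 6 tested stem and progenitor markers, a list that includes Kit, 4 fell and none rose in limma's test (4 and 0 at an unadjusted p under 0.05). Without Kit, 3 of 5 fell, and the mean of the 5 ran from 4.52 to 4.61 in control pools and from 4.09 to 4.32 in threat animals. The part of progenitors in the differences of Kit and Gata2 was not tested. Flt3, which is also in the dendritic list, fell by 0.51 (SE 0.085, adjusted p = 0.00029), and Cd34 and Meis1 were under the filter in both groups. Myb, which is also in the list of transcription factors, fell by 0.90 (SE 0.16, adjusted p = 0.00042) and Sox4 by 0.18 (SE 0.055, adjusted p = 0.017). Hlf and Mecom differed by 0.0037 (adjusted p = 0.97) and -0.0057 (adjusted p = 0.96). Of 6 tested genes of dendritic cells, 5 were called lower and 0 higher, with means of 5.64 to 5.83 and 4.70 to 4.77. Of 5 megakaryocyte genes 4 rose and none fell (4.89 to 4.99 against 5.32 to 5.47). Of 5 erythroid genes 1 rose and 1 fell (4.33 to 4.44 against 4.06 to 4.19), and none rose without control pool 1-2 or 5-6, while 2 fell without 5-6. The lower mean rests on Tfrc, which fell by 1.23 (SE 0.071, adjusted p = 3.1e-08). Klf1, Epor, Gata1 and Alas2 differed by 0.18, 0.074, -0.10 and -0.16.

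Lymphocyte markers were lower too: 3 of 4 tested B cell genes, 3 of 4 natural killer cell genes and 3 of 5 T cell genes were called lower, and 0 higher. At an unadjusted p under 0.05 the counts of 0 in the dendritic, megakaryocyte, lymphocyte and monocyte lists stayed at 0. Their means went from 7.27 to 7.36 to 5.30 to 5.73 (B cells), from 6.00 to 6.16 to 4.13 to 4.41 (natural killer cells) and from 4.44 to 4.53 to 3.99 to 4.16 (T cells). Monocyte and macrophage genes were bright, and 6 of 7 rose and none fell (9.60 to 9.72 against 10.07 to 10.16). Among them Itgam, the gene of CD11b, rose by 0.57 (SE 0.051, adjusted p = 1.7e-06). Lyz2 rose by 0.12 (SE 0.044, adjusted p = 0.048), a call lost in 16 of 23 alternative settings. With any single array left out 5 of the list rose, and with trended robust eBayes 7 rose. The difference of the 3' and 5' probe sets of beta-actin, a measure of RNA integrity, was 0.47 ± 0.063 (SD, n = 3) in control and 0.36 ± 0.034 (SD, n = 6) in threat arrays (exact permutation p = 0.0238, two-sided), while the same measure for Gapdh had a difference of -0.036 (p = 0.512 in the exact permutation test). The part of these shifts in the differences of the 10 genes was not tested.

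The genes whose 9 values, each less the gene's mean, lay nearest to those of a called gene of the set were taken from all tested genes. For Ccr3 they were Rundc3b and Tmem26, at root mean square differences of 0.12 and 0.16 on the log2 scale. Being chosen for this likeness, they share the pattern of Ccr3 by construction, and no test is given. For Hdc they were Ppp1r3b and Cpne2, at 0.045 each. For Gata2 they were Madd and Tctex1d2, at 0.045 and 0.048.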

How the data were processed

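Expression of 9 arrays was analysed: 6 of single threat animals and 3 of control pools of 2 animals, grouped by title. The authors deposited a log2 value for each probe set, which the submitters' processing notes credit to RMA; its version is not stated in the labels, and the log base was taken from the values (0.607 to 13.567). RMA equalises distributions, so a change in total RNA per cell would not be seen. The table holds 45101 probe sets. Array medians ran from 3.19 to 3.22, and the number of arrays limits the precision.

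Probe sets were named from the platform annotation, with 34741 of 34945 single-gene probe sets updated through Entrez numbers to RefSeq symbols of GRCm38.p6. Each gene was read from its probe set with the highest mean over 9 arrays. Genes with a mean of at least the 40th percentile (2.658) entered limma 3.58.1 in R 4.3.3 (lmFit and eBayes, two-sided, Benjamini-Hochberg over 13079 genes at 0.05). Intervals are 95% with moderated SE. The 7 lists of related genes and 9 of cell markers are described by counts, without a set test; 14 of the 95 related genes had no probe set that names them alone. The members, the lists and the rule for named genes were chosen with earlier results of these data known. The rule took all 10 members, from each list the 2 smallest p and the highest mean, the 2 nearest genes of called members, and Fcer1g, Gata1, Kit, Csf2rb, Il3ra, Siglecf, Mpo and Itgam. Tested on simulated data of 13079 genes drawn with the observed spread, limma recovered 44% of 50 genes changed by 0.25, 96% at 0.5 and 100% at 1 and at 2, with 4 false calls. No other genes were changed there, against 45.8% called in the data, and pools and single animals had the same spread. The shares recovered and the false calls therefore need not hold for the data. The labels name no batch.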

Additional observations from a re-analysis of the deposited data

Results flagged for a closer look

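Of 82 sets of 6 threat values checked (66 genes and 16 list means), 2 had 1 array further from the others than Dixon's 95% limit, which chance exceeds in about 5% of such sets. Rundc3b, the gene nearest to Ccr3, read 2.89 in threat animal 6, and the next value was 3.11. Aoc1, which encodes the enzyme that degrades histamine outside cells, read 3.46 in threat animal 5, and the next value was 3.57.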

How the results depend on the processing

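Each value was recomputed under 20 other settings and 3 chosen after seeing the data (filters at the 30th and 50th percentile and on the higher group mean). Hdc rose in all 23 (0.47 to 0.53, adjusted p up to 0.00047). Ccr3 fell in the 21 that tested it (-1.44 without control pool 5-6 to -1.02 without control pool 1-2, adjusted p up to 0.0010). At the 50th and 60th percentile it was not tested. At the 40th percentile Ccr3 was tested only because its control values are high, and with no filter limma gave it an adjusted p of 2.0e-05. The number of the 10 genes that fell, 2 as reported, was 0 at the 60th percentile, where Hdc alone was tested, and 1 with probe sets averaged per gene, quantile normalization, median centring, trended robust eBayes, threat animals averaged in number pairs and the 50th percentile. It ran from 1 to 2 with single arrays left out. The gene lost was Gata2, except at the 50th percentile, where it was Ccr3. With no filter and at the 30th percentile the 2 were Ccr3 and Il5ra, while Gata2 missed (adjusted p = 0.062 with no filter).

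Of 1492 values of 66 genes under the alternatives, 49 lost a call, 6 gained one and none reversed. The labels do not say whether the numbers of control pools and threat animals pair the arrays. Same-numbered arrays correlated at 0.15, -0.15 and -0.029 across genes in their deviations from the group means, and the others at -0.11 to 0.16. With 3 control pools these values cannot settle whether the numbers mark pairs. With the number as a replicate block 1 of the 10 genes rose, 2 fell, and 5944 of all genes were called against 5995. Of the 10 genes, 5 were under the filter on every array.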
